A study of Mus musculus with 14 samples.

Results

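The nuclear genes for subunits of oxidative phosphorylation were taken by symbol from the gene tables of a mouse forebrain RNA-seq study. Symbols beginning with Nduf followed by a, b, c, s or v and a number, Sdha to Sdhd, and symbols beginning with Uqcr, Cox4 to Cox8 or Atp5 were kept, and 14 pseudogene entries (-ps) were left out. This gave 93 of 56941 gene IDs under 92 symbols, since Atp5po has 2 IDs. By symbol prefix alone, 43 were counted under complex I, 4 under complex II, 8 under complex III, 19 under complex IV and 19 under complex V. A prefix does not settle which complex a protein sits in, and this grouping is used throughout.

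Polyadenylated RNA was sequenced from mouse embryos, as telencephalon at E12.5 (day of gestation) and as cerebral cortex at E18.5. At E12.5, 3 double conditional knockout libraries (dcKO) were set against 3 libraries labelled ff. At E18.5, 4 libraries labelled dcKO were set against 4 labelled ff. The dcKO mice carried floxed Sbno1, floxed Trp53 and the Emx1-Cre driver, which is active in dorsal telencephalic progenitors and their descendants, so RNA from cells outside that lineage is unrecombined. The ff label was read as the floxed alleles without the driver. No driver-only and no single-knockout group was analysed, so effects of the driver, of Sbno1 loss and of Trp53 loss cannot be told apart. In bulk tissue, fewer cells of a type and less RNA per cell cannot be told apart.

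Oxidative phosphorylation couples the oxidation of NADH and succinate to ATP synthesis in the inner mitochondrial membrane. Complexes I and II feed electrons to ubiquinone, complex III passes them to cytochrome c, complex IV reduces oxygen, and complex V, the ATP synthase, uses the resulting proton gradient. Most subunits are encoded in the nucleus, complex II entirely so, and the remaining ones by mitochondrial DNA. In the developing cortex, progenitors are regarded as more glycolytic and differentiating neurons as more dependent on oxidative phosphorylation.

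Total expected counts (estimated reads per library) were 42.0 to 54.8 M in E12.5 dcKO and 4.92, 67.4 and 51.4 M in E12.5 ff (M, 1000000). At E18.5 they were 5.98 M in dcKO replicate 1, 48.6 to 53.9 M in the other 3 libraries labelled dcKO, and 54.4 to 82 M in ff. Levels below are counts per 1000000 counts (CPM, scaled by edgeR's TMM factors) within a gene, or transcripts per 1000000 transcripts (TPM, corrected for length) between genes. Sbno1, the targeted gene, had 76.6, 68.6 and 65.4 CPM in E12.5 dcKO libraries, against 108, 113 and 95.2 CPM in ff libraries. At E18.5 it had 67.0 to 76.7 CPM in the libraries labelled dcKO, against 71.9 to 74.7 CPM in ff libraries. These ranges overlap, so the E18.5 label is not borne out by Sbno1 RNA over the whole gene, and the floxed exons are not given in the sources used here. E18.5 directions are therefore given for the libraries labelled dcKO. Emx1, the driver locus, fell at both stages, with log2 fold changes of -0.96 ± 0.08 at E12.5 and -0.81 ± 0.07 at E18.5 (SE; edgeR adjusted p = 0.00833 and 8.31e-06). Every dcKO library was male by Xist and Y-linked genes, while 1 E12.5 ff and 2 E18.5 ff libraries were female. The choroid plexus gene Ttr was at 1.82 TPM in dcKO replicate 3 of E18.5 while the remaining 7 libraries of that stage had 1401 to 3203 TPM.

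Most members were abundant. Averaged over the 14 libraries, 78 of 93 were at 50 TPM or more, with a median of 258 TPM among those 78, and 3 were at 0 in every library. Among the members at 50 TPM or more, the median level was 189 TPM in complex I (37 members), 142 TPM in complex II (4), 258 TPM in complex III (8), 489 TPM in complex IV (11) and 516 TPM in complex V (18). The most abundant member was Atp5f1b, the catalytic beta subunit of the ATP synthase, with 1515 ± 48.6 TPM in E12.5 dcKO, 1344 ± 126 TPM in E12.5 ff, 1343 ± 50.2 TPM in E18.5 dcKO and 1296 ± 45.8 TPM in E18.5 ff (SD, n = 3, 3, 4 and 4). Cox4i1, a nuclear-encoded subunit of complex IV, followed a similar range at 862 ± 30.6, 764 ± 26.0, 796 ± 101 and 873 ± 55.6 TPM in the same group order.

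**Figure D1:**
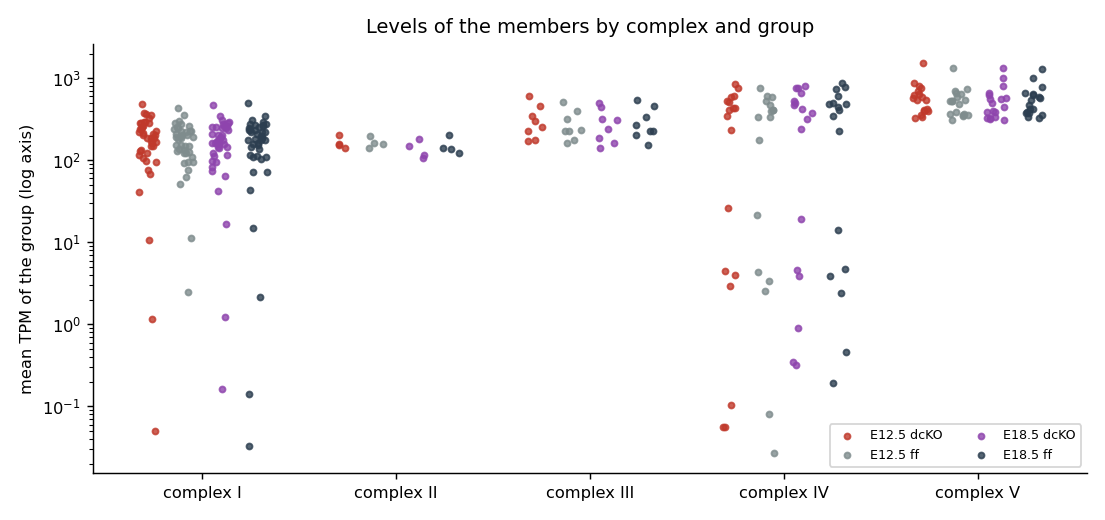
Mean level of each member in each group, in TPM on a log axis, by respiratory complex; each point is 1 gene, and group means at or below 0.01 TPM are left out. Members of complexes II, III and V lie above 100 TPM except for the second Atp5po ID, which is at 0, while complex IV also holds low isoform genes.

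The 15 members under 50 TPM included isoforms known from other tissues. Among the others were Ndufa4l2, the second Atp5po ID, Ndufa11b, Ndufb4b, Ndufb4c and Cox6c2. The heart and muscle isoforms Cox6a2, Cox7a1 and Cox8b and the testis isoforms Cox7b2 and Cox8c had group means of at most 3.85 TPM, and Cox8c was at 0 in all 14 libraries. Cox4i2, an isoform known from lung and from hypoxic cells, was at 4.39 to 4.76 TPM in the 4 groups, whose spreads overlapped. Cox6b2, another testis isoform, was at 26.5 ± 3.19 TPM in E12.5 dcKO, 21.6 ± 6.07 TPM in E12.5 ff, 19.2 ± 5.50 TPM in E18.5 dcKO and 14.1 ± 3.37 TPM in E18.5 ff (SD). None of these isoforms that passed the filter was called between genotypes at either stage. Ndufb4 and Ndufb4c, related copies, had group means of 62.4 to 71.6 TPM and 40.9 to 51.3 TPM; how the deposited counting split reads between them is not known, so both are uncertain.

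Promoter windows are shown for 1 member each of complexes I, II, III and V that is described in the E18.5 results below, to show where cores of known mitochondrial gene regulators lie in them. Each is the member with the largest E18.5 change in its complex that matched an entry; Sdhc and Uqcrc2, which had larger changes than Sdhd and Uqcrc1, did not match. Sequences are from RefSeq on GRCm38.p6, 5′ to 3′, each 300 bases long with 250 bases before the annotated start. Capitals mark cores of factors known to act on many mitochondrial genes, searched on both strands. These are GCGCANGC for NRF1, CCGGAAG for ETS factors such as GABP, and AANATGGC for YY1. Atp5f1c has 2 windows, of which the one holding a core is shown. The window of Cox7a2l, the complex IV member called at E18.5, holds none of these cores and is not shown.
Ndufs4 (chr13:114388045-114388344, minus strand): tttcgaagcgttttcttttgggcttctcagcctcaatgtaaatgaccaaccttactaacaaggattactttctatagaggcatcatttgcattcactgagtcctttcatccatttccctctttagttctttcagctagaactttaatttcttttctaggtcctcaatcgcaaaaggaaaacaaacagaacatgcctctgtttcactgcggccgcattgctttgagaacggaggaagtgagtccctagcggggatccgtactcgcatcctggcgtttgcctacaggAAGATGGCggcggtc
Sdhd (chr9:50603800-50604099, minus strand): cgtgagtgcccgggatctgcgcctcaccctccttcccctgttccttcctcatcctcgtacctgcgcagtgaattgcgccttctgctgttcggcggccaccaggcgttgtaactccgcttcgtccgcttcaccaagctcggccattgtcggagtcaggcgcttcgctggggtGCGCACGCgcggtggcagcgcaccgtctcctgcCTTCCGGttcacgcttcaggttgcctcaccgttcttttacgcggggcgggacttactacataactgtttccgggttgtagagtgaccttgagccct
Uqcrc1 (chr9:108936398-108936697, plus strand): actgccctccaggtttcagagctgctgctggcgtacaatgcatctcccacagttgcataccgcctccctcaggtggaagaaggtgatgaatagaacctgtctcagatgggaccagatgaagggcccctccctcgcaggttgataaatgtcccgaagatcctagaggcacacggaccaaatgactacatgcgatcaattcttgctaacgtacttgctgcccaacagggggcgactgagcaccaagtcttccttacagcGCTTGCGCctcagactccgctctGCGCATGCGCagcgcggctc
Atp5f1c (chr2:10080383-10080682, minus strand): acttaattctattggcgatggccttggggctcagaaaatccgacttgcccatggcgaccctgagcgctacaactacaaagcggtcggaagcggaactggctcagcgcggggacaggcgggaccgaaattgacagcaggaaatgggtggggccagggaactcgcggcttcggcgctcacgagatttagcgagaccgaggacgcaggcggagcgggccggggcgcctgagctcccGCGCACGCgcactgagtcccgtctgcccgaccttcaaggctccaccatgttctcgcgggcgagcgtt
Ndufs4 holds a YY1 core, Sdhd an NRF1 core and a reverse-strand ETS core, Uqcrc1 3 NRF1 matches of which 2 overlap, and Atp5f1c 1 NRF1 core. Of the members, 69 matched an entry, with 74 windows. The NRF1 core was in 32.4% of member windows and in 9.95% of all 32851 windows, the ETS core in 21.6% and 8.86%, and the YY1 core in 23.0% and 6.05%. At least 1 of the 3 was in 60.8% of member windows and 21.6% of all windows. A match describes letters in the window and shows neither binding nor a cause.

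At E12.5, the comparison of dcKO with ff telencephalon called no member. Of 93 members, 84 passed the filter on low counts, and edgeR's quasi-likelihood test called 0 higher and 0 lower at an adjusted p under 0.05. Over all 17853 genes tested, 0.0392% were called higher and 0.151% lower. At an unadjusted p under 0.05 there were 33 of 84 members and 3433 of all 17853 genes, and the DESeq2 Wald test called 16 higher and 0 lower, where it called 1.71% of all genes higher. The members nevertheless lay to 1 side: 78 of 84 log2 fold changes were above 0, with a median of 0.21, against a median of 0.01 over all genes tested. Without ff replicate 2 the members' median was 0.11. In 40 of 84 members every dcKO library was above every ff library, which held for 13.5% of all genes, and in 0 members was the reverse true. The authors' deposited table for E12.5 likewise lists 16 members higher and 0 lower among 80 with an adjusted p, and calls 10.2% of all its genes in either direction.

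By complex, the median log2 fold change at E12.5 was 0.20 in complex I (40 tested), 0.03 in complex II (4), 0.27 in complex III (8), 0.24 in complex IV (14) and 0.20 in complex V (18); differences between complexes were not tested. Ndufa1, an X-linked accessory subunit of the membrane arm of complex I, had 35.9, 36.3 and 40.5 CPM in dcKO libraries, against 26.2, 22.1 and 27.6 CPM in ff libraries. The groups did not overlap, and the log2 fold change was 0.58 ± 0.10 (SE, edgeR adjusted p = 0.0635). Atp5if1, the inhibitor that stops the ATP synthase from running in reverse, had 182, 192 and 201 CPM in dcKO libraries, against 159, 128 and 162 CPM in ff libraries (log2 fold change 0.36 ± 0.10, SE, edgeR adjusted p = 0.110). Uqcr11, a small subunit of complex III, had 72.2, 74.3 and 78.2 CPM in dcKO libraries, against 58.7, 50.9 and 67.7 CPM in ff libraries (0.34 ± 0.10 on the log2 scale, SE, edgeR adjusted p = 0.137). Cox8a, a small subunit of complex IV, had 128, 133 and 138 CPM in dcKO libraries, against 111, 118 and 100 CPM in ff libraries (0.28 ± 0.08, SE, edgeR adjusted p = 0.110). All 4 were above every ff library in every dcKO library, without passing the threshold. In complex II the lowest p belonged to Sdhc, a membrane anchor subunit, at 97.3, 107 and 109 CPM in dcKO libraries and 134, 100 and 116 CPM in ff libraries, which overlapped.

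The E12.5 shift moved with transcript length. The members are short, with a median relative effective length of 0.193, against 0.893 for all genes tested, where each library's own median gene is near 1. Over all 17853 genes, short genes had the higher log2 fold changes in dcKO (Spearman rho -0.41), and the same held among the 84 members (rho -0.56). Both are descriptions across genes of the same libraries. By library, the members' median difference from the ff mean was 0.14, 0.22 and 0.27 on the log2 scale in dcKO replicates 1 to 3, and 0.05, -0.19 and 0.12 in ff replicates 1 to 3. The rho with length was near 0 in dcKO replicate 1, -0.39 and -0.45 in dcKO replicates 2 and 3, and 0.46 in ff replicate 2. With a spline of length taken out of each library, the members' median was -0.01, 34 of 84 lay above 0, and edgeR called 0, with 6 at an unadjusted p under 0.05. The DESeq2 Wald calls above carry no such correction, and whether the deposited calls do is not given in the sources used here. On log2(TPM + 1), a scale also corrected for length, the shift was smaller but stayed. There limma called 0 members, with a member median of 0.13, against -0.02 over all genes. Summed over all members, TPM were 2.75% to 2.81% of the total in dcKO libraries and 2.38% to 2.58% in ff libraries. How much of the shift goes with length thus depends on the fit. Of 10 telencephalon and cortex markers 3 fell at E12.5, with summed levels of 802 to 891 TPM in dcKO libraries and 1051 to 1225 TPM in ff libraries. Summed choroid plexus markers were at 574 to 596 TPM in dcKO libraries and 304 to 581 TPM in ff libraries. Summed erythroid markers were at 15760 to 18360 TPM in dcKO libraries and 12720 to 16710 TPM in ff libraries. No choroid plexus, erythroid, neuron or radial glia marker was called at E12.5. The part of these markers in the member values was not tested.

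**Figure D2:**
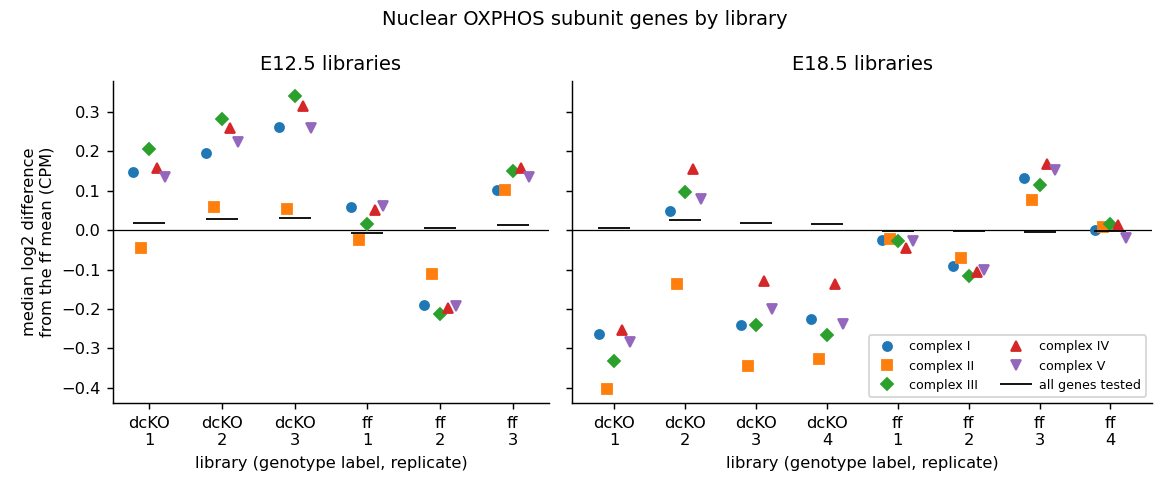
Median log2 difference of the members of each complex from the mean of the ff libraries of the same stage, for each library, from CPM; horizontal dashes mark the median of all genes tested. At E12.5 the 3 dcKO libraries lie above 0 in complexes I, III, IV and V, with ff replicate 2 lowest; at E18.5 replicates 1, 3 and 4 labelled dcKO lie below 0 in all 5 complexes, and replicate 2 in complex II alone.

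At E18.5, 21 members fell and none rose in cortex labelled dcKO. They were led by Ndufs4 and Ndufa9 of complex I, Uqcrc2 and Uqcrc1 of complex III, and Atp5f1c of complex V, and included 3 of the 4 complex II genes. The called log2 fold changes ran from -0.60 to -0.16. Of 84 members tested, 0 were called higher and 21, or 25%, lower by edgeR. Among all 17974 genes tested, 15.6% were called higher and 16.6% lower. The members' median log2 fold change was -0.15, with 72 below 0, against a median of 0.03 over all genes. Longer members had the lower log2 fold changes (Spearman rho -0.42 with relative effective length), while over all genes rho was 0.02. With the spline of length taken out of each library these were -0.49 and 0.03. Relative effective lengths were 0.50 in Ndufa9, 0.59 in Uqcrc2, 0.57 in Uqcrc1, 0.39 in Atp5f1c and 0.22 in Ndufs4, against a member median of 0.198. The part of length was not tested. In 16 members every library labelled dcKO was below every ff library, which held for 17.2% of all genes, so that count is near the background. The authors' deposited table for E18.5 lists 0 members higher and 28 lower among 85 with an adjusted p, and calls 32.0% of all its genes in either direction.

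Neuronal markers moved with this comparison. All 10 neuron markers fell, and their summed level was 5310 to 5994 TPM in libraries labelled dcKO, against 7798 to 8076 TPM in ff libraries. Of 10 radial glia markers 8 rose, with summed levels of 2378 to 2647 TPM in libraries labelled dcKO, against 2185 to 2299 TPM in ff libraries. Summed erythroid markers were at 595 to 2762 TPM in libraries labelled dcKO and 3648 to 6196 TPM in ff libraries, with 0 of 7 tested called. No marker of these lists was at 0 throughout a group. Of 10 telencephalon and cortex markers 3 rose and 5 fell, with summed levels of 955 to 1039 TPM in libraries labelled dcKO, against 1174 to 1343 TPM in ff libraries. The part of these 4 lists in the member results was not tested.

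Complex I held 12 of the 21 members that fell, of 39 tested. Ndufs4, an accessory subunit of the matrix arm whose loss in mice causes a Leigh-like encephalopathy, had 41.6, 49.8, 43.1 and 42.0 CPM in libraries labelled dcKO, against 67.0, 65.1, 73.4 and 64.0 CPM in ff libraries. The groups were well apart, and the log2 fold change was -0.60 ± 0.07 (SE, edgeR adjusted p = 5.14e-05). At E12.5 it had 62.7 to 70.3 CPM in dcKO libraries and 58.9 to 72.8 CPM in ff libraries, which overlapped. Ndufa9, an accessory subunit near the junction of the matrix and membrane arms, had 51.2, 59.8, 52.8 and 49.6 CPM in libraries labelled dcKO, against 75.1, 77.7, 81.0 and 71.2 CPM in ff libraries (log2 fold change -0.51 ± 0.06, SE, edgeR adjusted p = 0.000111). Again no library labelled dcKO reached the lowest ff library. By subfamily, 4 of 14 Ndufa, 5 of 12 Ndufb, 0 of 2 Ndufc, 3 of 8 Ndufs and 0 of 3 Ndufv genes fell. Exons of Ndufa9, and below of Uqcrc2 and Atp5pb, overlap a gene on the other strand in GENCODE M21, and whether counting used strand is not given in the sources used here. Ndufv1, the core subunit that binds NADH, was not called (-0.14 ± 0.06, SE, edgeR adjusted p = 0.0777).

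Complex II, succinate dehydrogenase, had 3 of 4 genes lowered. Sdhc and Sdhd encode its membrane anchors. Sdhc had 67.5, 73.1, 66.2 and 66.6 CPM in libraries labelled dcKO, against 87.5, 84.3, 93.3 and 90.2 CPM in ff libraries (log2 fold change -0.38 ± 0.05, SE, edgeR adjusted p = 0.000191). Sdhd had 61.0, 72.4, 61.2 and 61.8 CPM in libraries labelled dcKO, against 81.8, 74.5, 85.9 and 82.5 CPM in ff libraries (-0.33 ± 0.07, SE, edgeR adjusted p = 0.00219). In both genes the groups did not overlap, and for Sdhd the nearest libraries were 72.4 CPM in dcKO replicate 2 and 74.5 CPM in ff replicate 2. Sdhb, the iron-sulfur subunit, fell by 0.26 on the log2 scale. Sdha, the flavoprotein that oxidises succinate, had 178 to 199 CPM in libraries labelled dcKO and 195 to 205 CPM in ff libraries and was not called (-0.05 ± 0.05, SE, edgeR adjusted p = 0.488).

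Complex III had 3 of 8 genes lowered. Uqcrc2 and Uqcrc1 encode the core proteins on its matrix side. Uqcrc2 had 115, 139, 127 and 117 CPM in libraries labelled dcKO, against 171, 163, 178 and 163 CPM in ff libraries (log2 fold change -0.43 ± 0.06, SE, edgeR adjusted p = 0.000324). Uqcrc1 had 119, 152, 139 and 139 CPM in libraries labelled dcKO, against 187, 170, 200 and 182 CPM in ff libraries (-0.42 ± 0.07, SE, edgeR adjusted p = 0.000916). Neither gene's groups overlapped. The other one called was Uqcrfs1, the Rieske iron-sulfur protein, at -0.22. The small subunits Uqcrh and Uqcr11 were not called (-0.21 ± 0.10 and -0.10 ± 0.10, SE, edgeR adjusted p = 0.150 and 0.483).

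In complexes IV and V, 1 of 15 and 2 of 18 genes were called lower, where 16.6% of all genes were called lower. The complex IV call was Cox7a2l, which is known for joining complexes III and IV into supercomplexes rather than as a catalytic subunit. It had 145, 159, 146 and 144 CPM in libraries labelled dcKO, against 164, 160, 194 and 177 CPM in ff libraries (log2 fold change -0.22 ± 0.07, SE, edgeR adjusted p = 0.0210). The groups were separated only narrowly, by 159 CPM in dcKO replicate 2 and 160 CPM in ff replicate 2. Atp5f1c, the gamma subunit of the rotating stalk of the ATP synthase, had 156, 178, 155 and 144 CPM in libraries labelled dcKO, against 211, 205, 236 and 200 CPM in ff libraries (-0.43 ± 0.07, SE, edgeR adjusted p = 0.000780). Its groups did not overlap. Atp5pb, of the peripheral stalk, had 202, 244, 218 and 205 CPM in libraries labelled dcKO, against 256, 236, 274 and 249 CPM in ff libraries, which overlapped at dcKO replicate 2 (-0.22 ± 0.07, SE, edgeR adjusted p = 0.0263). All 18 complex V genes tested lay below 0, and Atp5f1b was at -0.09 ± 0.06 (SE, edgeR adjusted p = 0.239). Median log2 fold changes were -0.16, -0.30, -0.18, -0.10 and -0.15 in complexes I to V, and differences between them were not tested. The counts by complex depend on the fit. With the spline of length taken out of each library, 24 of 39, 3 of 4, 4 of 8, 5 of 15 and 12 of 18 were called lower in complexes I to V. In that fit 26.1% of all genes were called lower.

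**Figure D3:**
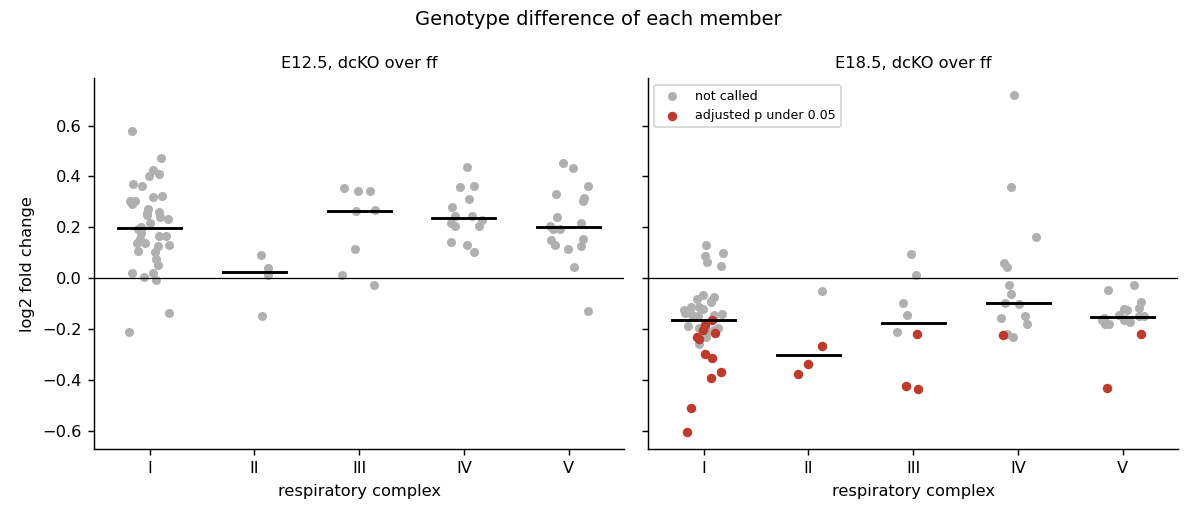
Log2 fold change of dcKO over ff for each member tested, with E12.5 left and E18.5 right, by respiratory complex; each point is 1 gene, red where edgeR's adjusted p was under 0.05, and bars mark medians. At E12.5 most points lie above 0 and none is called, and at E18.5 the 21 called genes lie below 0.

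**Figure D4:**
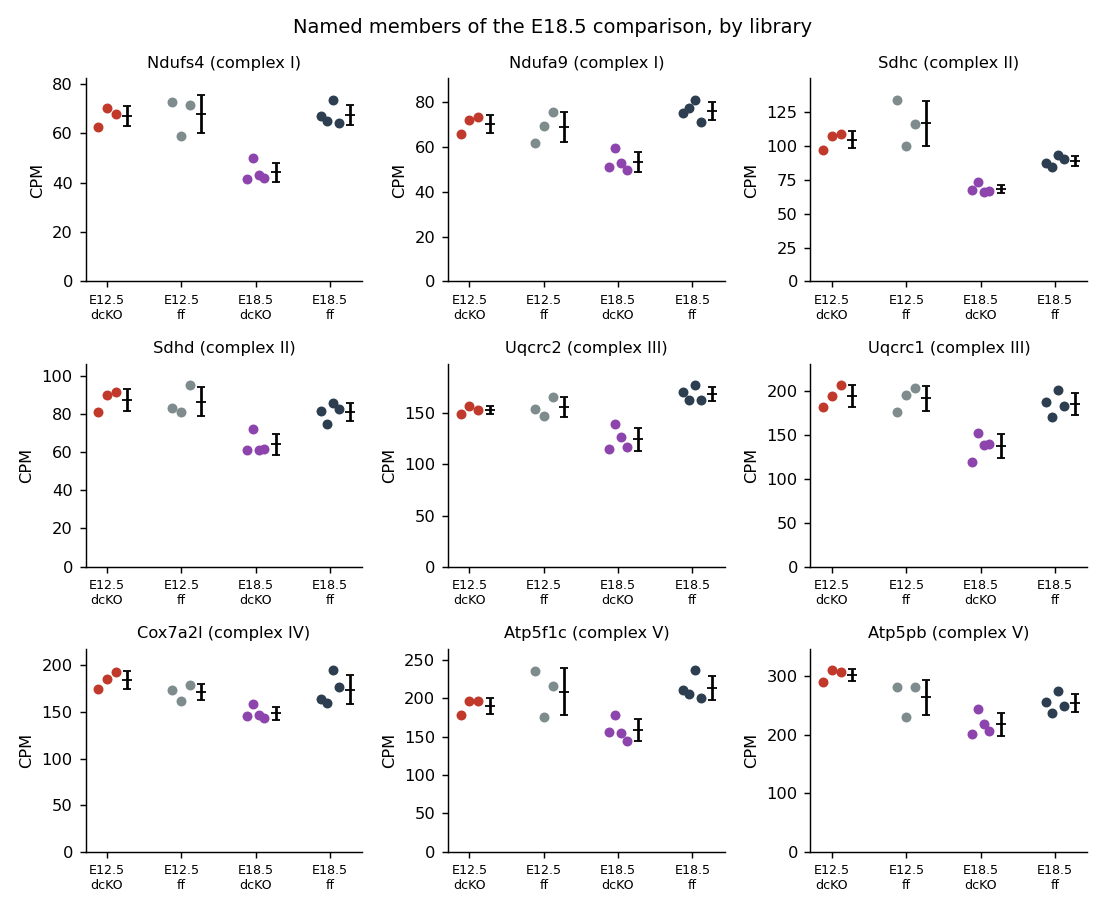
CPM of the 9 named members of the E18.5 comparison in every library, with the mean and SD of each group beside the points; each axis starts at 0. Ndufs4 lies between 41.6 and 49.8 CPM in the 4 E18.5 libraries labelled dcKO and between 64.0 and 73.4 CPM in the 4 ff libraries.

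The E18.5 libraries labelled dcKO were not alike. The members' median difference from the ff mean was -0.27, -0.20 and -0.23 on the log2 scale in replicates 1, 3 and 4, and 0.07 in replicate 2. Replicate 2 had a rho with length of -0.19, and ff replicate 3, with the highest member median of the ff libraries (0.13), had -0.24. Without dcKO replicate 2, 48 members were called lower, with a median of -0.24, where 15.4% of all genes were lower. Without dcKO replicate 4, 13 of 85 members tested were called lower, near the 12.9% of all genes called lower in that fit. Without dcKO replicate 1, the shallow library, 15 of 85 were called lower, near the 15.9% of all genes. Leaving out ff replicates 1 to 4 in turn gave 19 of 85, 23 of 85, 15 of 84 and 22 of 84. The shares of all genes called lower were then 14.3%, 16.3%, 14.8% and 17.3%. Of the 21 members, 13 were called in every fit that left out 1 library. Without dcKO replicate 3, the library with little Ttr, 15 of 85 were called lower, where 14.7% of all genes were lower. With the length correction 48 were called lower, all 21 among them, where 26.1% of all genes were called lower and the median of all genes shifted to -0.06, against -0.23 in the members. On log2(TPM + 1), where the median of all genes shifted to 0.12, limma called 1 member higher and 9 lower, with a member median of -0.07, and Sdhc, Cox7a2l and Atp5pb lost their calls (adjusted p = 0.122, 0.149 and 0.0937). Cox7a2l was also not called without dcKO replicate 4 (edgeR adjusted p = 0.0627), nor Atp5pb without dcKO replicate 1 or 4 or ff replicate 1 or 3 (edgeR adjusted p = 0.0563, 0.0824, 0.0509 and 0.0607). Summed over all members, TPM were 2.59% of the total in libraries labelled dcKO and 2.68% in ff libraries, with overlapping ranges.

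Genes around the subunits were read from lists drawn up by role. At E12.5 edgeR called none of 20 further subunits and electron carriers, 15 complex I assembly factors, 34 assembly factors of complexes II to V, 18 genes of the TCA cycle and pyruvate dehydrogenase, 19 regulators of mitochondrial gene expression or 13 mitochondrially encoded subunits. At an unadjusted p under 0.05 there were 5, 5, 12, 2, 1 and 5 of them in that order of lists. The same held for 3433 of all 17853 genes tested at that stage. Over all genes tested at E18.5, 15.6% were called higher and 16.6% lower, and no list was tested against these shares. At E18.5, 2 of the 20 carriers fell and none rose, among them Gpd2, the mitochondrial glycerol-3-phosphate dehydrogenase, with 53.7 ± 2.95 CPM in libraries labelled dcKO and 74.0 ± 4.24 CPM in ff libraries (SD, n = 4 each; edgeR adjusted p = 9.86e-05). Of the complex I assembly factors 2 rose and 2 fell, with Foxred1 at 0.21 and Ndufaf5 at -0.34. Of the other assembly factors 1 rose and 7 fell, among them Uqcc1, which assembles complex III, at -0.48 ± 0.06 (SE, edgeR adjusted p = 7.04e-05), and Lyrm7, which inserts the Rieske protein, at -0.47.

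In the TCA cycle list 1 of 18 genes rose and 7 fell at E18.5, where 15.6% of all genes were higher and 16.6% lower. Idh3a, the catalytic subunit of NAD-dependent isocitrate dehydrogenase, had 93.0 ± 3.08 CPM in libraries labelled dcKO and 121 ± 5.32 CPM in ff libraries (SD, n = 4 each; edgeR adjusted p = 0.000151), and Suclg2, the GDP-forming succinyl-CoA ligase subunit, rose by 0.42 on the log2 scale. Of the 19 regulators 4 rose and 0 fell, among them Polg, the mitochondrial DNA polymerase, at 0.39, and the coactivator Ppargc1a at 0.30. The 13 mitochondrially encoded subunits had a median of 0.16, opposite in sign to the nuclear members, but 0 were called and 0 had an unadjusted p under 0.05.

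The stage comparison set E18.5 cortex against E12.5 telencephalon within each genotype, so tissue changes with stage. Cell type markers moved with it: neuron markers were higher at E18.5 in 9 of 10 genes in dcKO and 10 of 10 in ff, radial glia markers lower in 8 of 10 in each, and erythroid markers lower in 8 of 10 in dcKO and 7 of 10 in ff; their part was not tested. In dcKO, 2 of 86 members tested were called higher and 54, or 62.8%, lower at E18.5 by edgeR. Over all 19327 genes tested, 30.9% were higher and 31.3% lower. In ff, 18 members were called higher and 6 lower, where 31.5% of all genes were higher and 29.9% lower. Both shares lay under the background in that fit, but the higher one did not in every fit. It was 32 of 86 against 26.7% of all genes in male libraries alone, where 0 members were called lower, 27 of 86 against 29.5% on log2(TPM + 1) with limma, and 25 of 86 against 27.4% without E12.5 ff replicate 3. The members' median log2 difference was -0.31 in dcKO and 0.13 in ff. The ff median was 0.02 without E12.5 ff replicate 2, 0.04 without E18.5 ff replicate 3, 0.20 without E12.5 ff replicate 3 and 0.32 in male libraries alone, and the count of calls without E12.5 ff replicate 2 was 13. On log2(TPM + 1), limma called 5 members higher and 25 lower in dcKO, where 19.8% of all genes were lower and the median shifted to 0.16, against -0.10 in the members. With the length correction edgeR called 3 higher and 33 of 86 lower in dcKO, near the 37.3% of all genes called lower in that fit, where the median of all genes was -0.12, against -0.18 in the members.

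In ff, members were called in both directions within each of complexes I, IV and V, though none was called lower in male libraries alone. CPM were scaled within each stage, so overlap between stages is approximate, while the log2 differences come from the joint fit of both stages. Ndufb2, an accessory subunit of the membrane arm of complex I, had 43.3, 40.3, 47.1 and 41.8 CPM at E18.5, against 32.2, 28.2 and 30.6 CPM at E12.5 (log2 difference 0.54 ± 0.08, SE, edgeR adjusted p = 1.45e-05). Its stages did not overlap in ff. In dcKO it had 33.0 to 39.3 CPM at E18.5 and 31.5 to 32.1 CPM at E12.5, which did not overlap either but was not called. Atp5if1 rose in ff, with 186 to 230 CPM at E18.5 and 128 to 162 CPM at E12.5 (0.50 ± 0.10, SE, edgeR adjusted p = 0.000273). Among the genes of the c ring of the ATP synthase, which encode the same mature protein, Atp5mc1 rose by 0.42 and Atp5mc2 fell by 0.50 on the log2 scale. Atp5mc2 had 109, 108, 124 and 120 CPM at E18.5, against 157, 159 and 180 CPM at E12.5. In dcKO it fell by 0.71, while Atp5mc1 was at 0.01 and not called.

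In complex II, Sdhc was lower at E18.5 in both genotypes, with log2 differences of -0.63 ± 0.08 in dcKO and -0.36 ± 0.08 in ff (SE, edgeR adjusted p = 3.18e-06 and 0.000931). In complex IV, Cox6a1 rose by 0.40 in ff, and Cox7b by 0.33. The low isoform Cox6b2 fell in ff, with 1.67 to 3.42 CPM at E18.5 and 3.10 to 5.13 CPM at E12.5, ranges that overlap. On log2(TPM + 1) with limma, Cox6b2 and Ndufa4l2 were not called in ff (adjusted p = 0.0583 and 0.0633), and without E12.5 ff replicate 2 edgeR did not call Cox7b or Cox6b2 (adjusted p = 0.162 and 0.0755). Ndufa4l2, a hypoxia-induced relative of Ndufa4, rose in both genotypes, by 0.54 in dcKO and 0.78 in ff; in ff it had 5.03, 5.23, 5.21 and 6.70 CPM at E18.5, against 3.31, 3.06 and 3.46 CPM at E12.5. The other member that rose in dcKO was Cox6a2, at 0.18 to 0.32 CPM at E18.5 and 0 to 0.095 CPM at E12.5, so its fold change rests on very few reads.

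**Figure D5:**
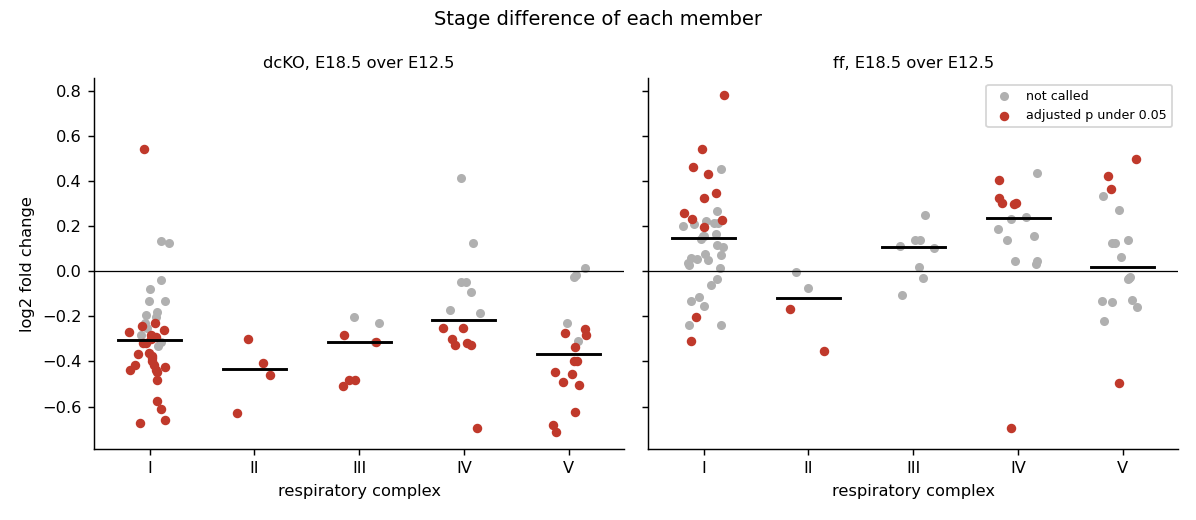
Log2 difference of E18.5 over E12.5 for each member tested, in dcKO and in ff, by respiratory complex; each point is 1 gene, red where edgeR's adjusted p was under 0.05, and bars mark medians over all members tested. Cox6a2 in both panels and Cox6c2 in dcKO lie outside a log2 difference of ±1 and are not drawn, and 1 other member lies above 0 among the called genes in dcKO.

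The interaction tested whether the genotype difference itself differed between stages. Of 86 members, 38, or 44.2%, had a lower genotype difference at E18.5 than at E12.5, and 0 a higher one, by edgeR. Over all genes, 9.41% were called lower and 7.12% higher. In 85 of 86 the interaction was below 0, with a median of -0.41 on the log2 scale, against -0.03 over all genes. By complex, 21 of 40 were called in complex I, 2 of 4 in II, 4 of 8 in III, 6 of 16 in IV and 5 of 18 in V. Both the E12.5 values above 0 and the E18.5 values below 0 enter it, and it shares every library with those comparisons, so it is no independent support for either.

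Ndufs4 had the lowest p, at -0.64 ± 0.12 (SE, edgeR adjusted p = 0.00327), with genotype differences of -0.60 at E18.5 and -0.01 at E12.5. Ndufa9 followed at -0.57 ± 0.12 (adjusted p = 0.00439), with -0.51 at E18.5 and 0.02 at E12.5. For these 2 genes the E12.5 groups overlapped. Ndufv1 was at -0.42 ± 0.10 (adjusted p = 0.00853), with -0.14 at E18.5 and 0.24 at E12.5, neither called within its stage. Ndufb8, a membrane arm accessory subunit, was at -0.60 ± 0.14 (adjusted p = 0.00888), with 71.1, 91.0, 71.2 and 70.1 CPM in E18.5 libraries labelled dcKO and 83.9 to 98.0 CPM in E18.5 ff libraries. The count of members was 15 with the length correction, where 9.48% of all genes were called lower, and 11 on log2(TPM + 1) with limma, where 2.32% of all genes were called lower, the members' median was -0.20 and Ndufv1 was not called (adjusted p = 0.0818). It was 16 without E12.5 ff replicate 2, 14 and 9 without E12.5 dcKO replicates 2 and 3, 25 and 21 without E18.5 ff replicates 1 and 3, 22 without E18.5 dcKO replicate 4 and 64 without E18.5 dcKO replicate 2. Of the 38 members, 8 were called in every fit that left out 1 library.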

How the data were processed

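Libraries were made with a stranded mRNA kit (TruSeq), per the labels' protocols. The submitters' processing notes name Trim Galore, STAR, RSEM and DESeq2; versions, genome build and counting strand are not given in the sources used here. Expected count and TPM values per gene are RSEM's, as deposited. The log2 fold change and p-value columns of the deposited tables are from DESeq2, per the file headers.

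Libraries were grouped by the genotype word in each table column, with dfl read as ff; replicates are numbered in column order. The library names that the descriptions give contradict the titles' groups in 11 of 14 samples. Nothing says that libraries of a group came from separate embryos, so p-values measure only the spread between these libraries, which may be technical.

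Expected counts were rounded, filtered with filterByExpr, scaled by TMM and tested with edgeR 4.0.16's robust quasi-likelihood test in R 4.3.3, over all genes, with Benjamini-Hochberg adjustment at 0.05. Each stage had its own fit, while stage differences and the interaction used 1 fit of the 4 groups. Printed CPM used the TMM factors of each stage alone. Alternatives used limma 3.58.1, DESeq2 1.42.0 and a per-library spline of relative effective length with 5 degrees of freedom. The deposited counts and TPM gave that length as counts per TPM. Tables were handled in Python 3.11.15 with pandas 2.3.3. The edgeR fits for E12.5, E18.5 and the interaction were tested on simulated data. There, 1.5-fold differences were recovered in 43% of cases at E12.5, 70% at E18.5 and 35% in the interaction. For 2-fold differences the shares were 72%, 91% and 63%.

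The members, lists and the rule for named genes were chosen with earlier results of these data known. Members with values in every library were, per complex and stage, up to 2 called members per direction with the largest change or else the one with the lowest p, the 4 with the lowest interaction p, the largest stage differences in ff, the most abundant of each complex and the tissue isoforms, and up to 3 genes per list. A gene that this rule names is not reported here. Exons of 33 of 92 members found in GENCODE M21 overlap those of another gene, 29 on the other strand, among them Ndufa9, Uqcrc2 and Atp5pb; such reads cannot be told apart where strand was not used.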

Additional observations from a re-analysis of the deposited data

Results flagged for a closer look

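In groups of 4 libraries, 1 library stood far from the other 3 in 12 of 68 group and gene combinations tested among the named members, where chance alone marks about 1 in 20. In 7 of them the library was E18.5 dcKO replicate 2, the highest of its group: Atp5if1 at 220 CPM, Cox4i1 at 282 CPM, Cox7a2l at 159 CPM, Cox7b at 104 CPM, Ndufb2 at 39.3 CPM, Ndufb8 at 91.0 CPM and Sdhd at 72.4 CPM. Genes of 1 library are not independent, so these 7 are 1 pattern. In E18.5 ff, Cox4i2 was at 2.38 CPM and Cox6a2 at 0.167 CPM in replicate 3, Cox7b at 78.6 CPM in replicate 2, Cox7b2 at 0.104 CPM in replicate 1 and Ndufa4l2 at 6.70 CPM in replicate 4.

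The genotype difference differed between stages in 38 members by the interaction test of edgeR. The 4 with the lowest p were Ndufs4 at -0.64, Ndufa9 at -0.57, Ndufv1 at -0.42 and Ndufb8 at -0.60 on the log2 scale.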

How the results depend on the processing

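At E12.5, where edgeR called 0 members, 16 were called by the DESeq2 Wald test, 2 with no filter, 4 in 1 fit of all 14 libraries and 1 without the shallow library; with 1 library left out the count was 0 to 1. At E18.5 the 21 calls became 48 with the length correction and 10 on either log2(TPM + 1) or log2(TPM + 0.1), and 13 to 48 with 1 library left out. The stage difference in dcKO, with 56 calls, became 36 with the length correction and 30 on either TPM scale, and 40 to 70 with 1 library left out. The stage difference in ff, with 24 calls, had 13 (without E12.5 ff replicate 2) to 31 with 1 library left out, 34 and 35 on the TPM scales and 32 in male libraries alone. The interaction, with 38 calls, became 15 with the length correction and 11 on either TPM scale, and 9 to 64 with 1 library left out. The cause was not tested. Of the named calls, 509 alternatives kept direction and side of the threshold, 46 lost the threshold and 0 changed direction. These alternatives share libraries, and for the stage difference in ff some left out only a dcKO library. At E18.5 the fit without the shallow library repeats the fit without dcKO replicate 1. The counts are therefore no measure of independent support. Fits with sex as a covariate or with male libraries alone, the latter chosen after seeing the data, stayed within 1.5 times each count, but in male libraries the ff stage calls were 32 higher and 0 lower, against 18 and 6. No paired analysis was possible because the genotypes share no title number within a stage and the stages share 1 number per genotype. The table columns carry the same numbers as the titles of their stage and genotype. The shallow libraries, at 4.92 M and 5.98 M counts, limit the lowest isoforms.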
